A study of Homo sapiens with 10 samples.

Results

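The genes described are 8 enzymes that the rule choosing them labels as suppressors of ferroptosis independent of the glutathione peroxidase GPX4. The 8 are AIFM2 (whose protein is FSP1), GCH1, DHODH, COQ2, MBOAT1, MBOAT2, PRDX6 and VKORC1L1. They were found by their Ensembl gene IDs among the 20289 genes of a ribosome profiling table of pancreatic cancer cells, all 8 were listed, and all 8 passed the filter on low values in every comparison. Ribosome profiling sequences the mRNA fragments that ribosomes shield from nuclease, so that a gene's value reflects its mRNA amount and its translation together. The values are FPKM, fragment counts scaled by gene length and by the size of the library.

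Libraries were made in 4 groups from surviving cells of 2 established lines of human pancreatic ductal adenocarcinoma. PANC-1 cells that had received 1 µM imidazole ketone erastin (IKE) gave 4 libraries, and PANC-1 cells that had received 0.1% DMSO gave 2. CFPAC-1 cells that had received 10 µM IKE gave 2 libraries, and CFPAC-1 cells that had received 0.1% DMSO gave 2. IKE is an erastin derivative that blocks cystine import by system xc- and so depletes glutathione. The dose differed between the lines, so dose and line cannot be told apart where IKE groups of both lines are set side by side. Only cells that survived were collected, so IKE libraries hold cells that withstood the drug, and a shift in which cells were present cannot be told apart from less or more footprint signal per cell. How long cells were exposed is unsettled, since 1 label states 24 h and another protocol speaks of several days in a row. The labels call the replicates biological. The identity of the lines was not checked against cell type markers here, because the table lists genes by ID alone and the reference table used here paired none of these IDs with a symbol. The names of the 8 genes come from the rule that chose them, and other genes of their pathways are not reported for the same reason.

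Ferroptosis is cell death by peroxidation of membrane phospholipids that carry polyunsaturated fatty acids, with iron as catalyst. GPX4 reduces phospholipid hydroperoxides at the expense of glutathione, and a set of enzymes acts beside it. Some supply or reduce lipid-soluble radical traps (coenzyme Q, vitamin K, tetrahydrobiopterin), some change which fatty acids the phospholipids carry, and some reduce peroxides directly. AIFM2 (ENSG00000042286) encodes an NAD(P)H oxidoreductase at the plasma membrane that reduces coenzyme Q and vitamin K. COQ2 (ENSG00000173085) encodes the mitochondrial prenyltransferase that joins the isoprenoid tail to the ring in coenzyme Q synthesis, and DHODH (ENSG00000102967) encodes an enzyme of pyrimidine synthesis in the inner mitochondrial membrane that passes electrons to coenzyme Q. VKORC1L1 (ENSG00000196715) encodes a vitamin K epoxide reductase, and GCH1 (ENSG00000131979) encodes GTP cyclohydrolase, the rate-limiting enzyme of tetrahydrobiopterin synthesis. MBOAT1 (ENSG00000172197) and MBOAT2 (ENSG00000143797) encode lysophospholipid acyltransferases that place monounsaturated fatty acids into phospholipids. PRDX6 (ENSG00000117592) encodes a peroxiredoxin that reduces phospholipid hydroperoxides. RefSeq annotates each as a protein-coding gene of GRCh38.p14, AIFM2 at chr10:70112271-70132825, COQ2 at chr4:83263824-83285134, DHODH at chr16:72008744-72027659 and VKORC1L1 at chr7:65865772-65959558. GCH1 lies at chr14:54842017-54902826, MBOAT1 at chr6:20099684-20212469, MBOAT2 at chr2:8852690-9003684 and PRDX6 at chr1:173477335-173488815.

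The reference sequences of the promoters are shown for the 3 genes of this set in which a searched motif was found. RefSeq promoters of GRCh38.p14 were matched for 5 of the 8 genes (AIFM2, DHODH, COQ2, MBOAT2 and VKORC1L1), as windows from 250 bases before to 50 bases after a transcription start. Motifs searched on both strands were TGACNNNGC (the antioxidant response element core, bound by NRF2), TGATGNAA (the composite element of ATF4 and C/EBP factors) and CACGTG (an E-box). Each sequence runs 5′ to 3′ on the gene's strand, and capitals mark the match. The windows lie at chr10:70132776-70133075 on the minus strand for AIFM2, at chr16:72008494-72008793 on the plus strand for DHODH and at chr7:65872824-65873123 on the plus strand for VKORC1L1, the last of these inside the annotated gene, downstream of its first base.
AIFM2: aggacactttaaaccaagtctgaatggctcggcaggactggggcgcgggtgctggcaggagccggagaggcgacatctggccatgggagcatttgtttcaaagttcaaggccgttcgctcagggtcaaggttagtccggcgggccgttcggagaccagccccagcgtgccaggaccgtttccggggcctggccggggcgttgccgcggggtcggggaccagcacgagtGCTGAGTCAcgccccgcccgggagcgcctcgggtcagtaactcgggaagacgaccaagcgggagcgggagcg
DHODH: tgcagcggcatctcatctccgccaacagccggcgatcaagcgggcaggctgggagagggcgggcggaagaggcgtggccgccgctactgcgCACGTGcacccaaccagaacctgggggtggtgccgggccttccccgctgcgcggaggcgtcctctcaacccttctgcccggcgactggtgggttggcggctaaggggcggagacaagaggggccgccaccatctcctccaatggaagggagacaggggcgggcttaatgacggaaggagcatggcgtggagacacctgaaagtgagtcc
VKORC1L1: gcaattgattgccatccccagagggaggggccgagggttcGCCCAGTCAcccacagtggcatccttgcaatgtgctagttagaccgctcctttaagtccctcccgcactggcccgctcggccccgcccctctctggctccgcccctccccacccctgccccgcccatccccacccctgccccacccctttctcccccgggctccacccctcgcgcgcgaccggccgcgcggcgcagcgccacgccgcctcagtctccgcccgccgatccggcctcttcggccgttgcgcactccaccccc
AIFM2 held the antioxidant response element core as GCTGAGTCA, on the strand opposite to the gene, at positions -22 to -14 counted from the transcription start. VKORC1L1 held the same motif as GCCCAGTCA, also on the opposite strand, at -210 to -202. DHODH held the E-box at -159 to -154, and each of these windows held a single match. No match was found for COQ2 or MBOAT2, and TGATGNAA was found in none of the 5 windows. Of 35116 RefSeq promoter windows of 300 bases, 13.3% held TGACNNNGC, 3.62% held TGATGNAA and 7.26% held CACGTG. A match describes letters only, and binding was not measured.

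Levels of the 8 genes spanned a wide range, and their rough order was shared by the 4 groups. PRDX6 was the most abundant in each group, with a mean over all 10 libraries of 384 ± 148 FPKM (SD, n = 10), above 95.4% of the 13125 genes that passed the filter (1 FPKM or more on average). VKORC1L1 (62.5 ± 16.9 FPKM) and COQ2 (41.3 ± 17.1 FPKM) came next in each group. AIFM2 (22.4 ± 4.25 FPKM), MBOAT2 (21.4 ± 5.68 FPKM) and DHODH (20.5 ± 5.66 FPKM) lay near the median of all genes, with 52.6%, 51.4% and 50.4% of genes below them. MBOAT1 (10.7 ± 5.998 FPKM) and GCH1 (range 0 to 9.95 FPKM, median 3.66 FPKM) came last in each group, GCH1 below MBOAT1. The order of AIFM2, MBOAT2 and DHODH differed between groups, and neighbours among these 3 overlapped in their libraries within each group, except MBOAT2 and AIFM2 in PANC-1 DMSO. COQ2 and AIFM2 overlapped in PANC-1 IKE, VKORC1L1 and COQ2 in PANC-1 DMSO, and MBOAT1 and GCH1 in PANC-1 IKE. Every other pair of neighbours in these orders stood apart.

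**Figure D1:**
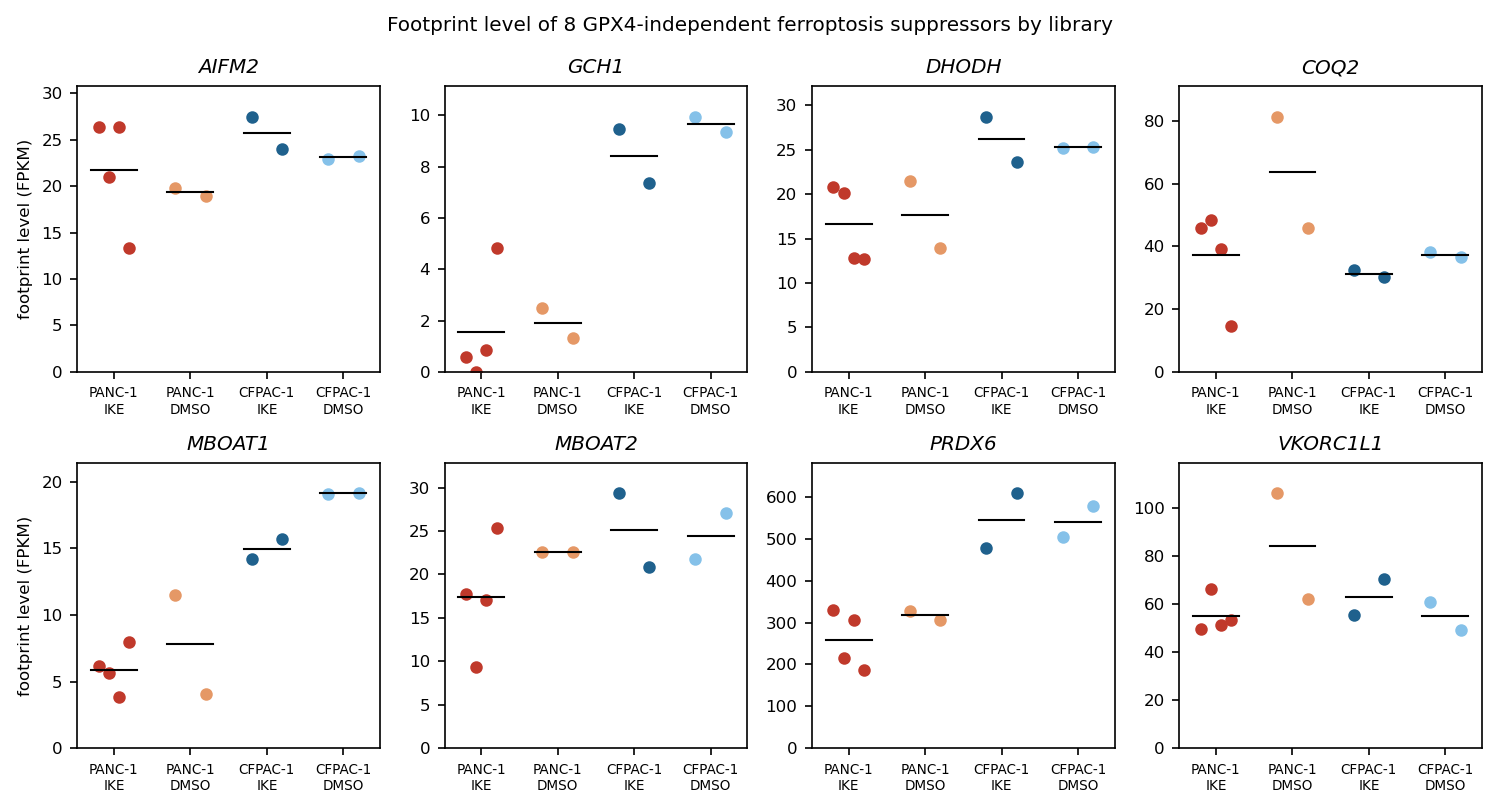
Footprint level of each gene in every library. The vertical axes give FPKM and start at 0, each point is 1 library, and black lines are group means. PANC-1 points of GCH1, MBOAT1, DHODH and PRDX6 lie below every CFPAC-1 point, while IKE and DMSO points of PANC-1 overlap for all 8 genes.

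The libraries were not equally deep or equally reproducible. Relative depth was read from the spacing of low FPKM values of 238 genes, on a scale with a CFPAC-1 DMSO library near 1. These genes, and the FPKM worth of 1 read in each, were taken from the CFPAC-1 libraries, where values had to be above 0 and whole reads. For each library the smallest depth that fitted well enough was taken. Relative depth was 0.211 to 0.871 in PANC-1 and 0.916 to 1.17 in CFPAC-1. The reading rested on 107 to 130 values in each PANC-1 library and 219 to 235 in each CFPAC-1 library. Of these, 68.3% to 74.6% came out as whole reads in PANC-1, so the PANC-1 depths are rough. In CFPAC-1 100% did, but that share and the larger number of values were set by the choice of genes. They do not measure how well CFPAC-1 was read. By this reading PANC-1 IKE replicates 2 and 4 were the shallowest, at 0.240 and 0.211. PANC-1 IKE replicate 1, read at 0.871, had 14424 genes above 0, more than any other library. Every other PANC-1 library had fewer than any CFPAC-1 library. The 10 most abundant genes took 23.1% of the summed FPKM in PANC-1 IKE replicate 4 and 16.2% in replicate 2, against 8.51% and 8.58% in PANC-1 DMSO. The median residual SD of log2(FPKM + 1) was 0.48 in PANC-1 and 0.18 in CFPAC-1, and the SD was larger in PANC-1 for all 8 genes and for 87.7% of the 13125 genes. Among the 6 PANC-1 libraries, IKE replicate 4 was lowest for AIFM2, DHODH, COQ2 and PRDX6 and highest for GCH1 and MBOAT2, while DMSO replicate 1 was highest for DHODH, COQ2, MBOAT1 and VKORC1L1. Their part in the results was not tested beyond the values given without them.

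Whether PANC-1 cells that survived 1 µM IKE carried different footprint levels of these genes from PANC-1 cells in DMSO was asked first. None of the 8 genes was called by limma-trend at a Benjamini-Hochberg adjusted p under 0.05. In all, 2 of 12611 genes were called, or 0.0159%. Before adjustment 0 of 8 genes were under 0.05, against 11.1% of all genes tested. IKE and DMSO libraries overlapped for each of the 8, while they stood apart for 23.1% of all genes. The fitted difference was negative for 7 genes and positive for AIFM2, with a median of -0.38 on the log2(FPKM + 1) scale against -0.03 over all genes. All 8 differences come from the same libraries, so their signs are not separate observations. A difference under 0.5 in size was fitted for 6 of the 8, against 56.9% of all genes.

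Among the coenzyme Q genes, COQ2 had, in replicate order, 45.9, 48.5, 39.3 and 14.7 FPKM in PANC-1 IKE, against 81.3 and 45.7 FPKM in PANC-1 DMSO. IKE replicate 4 was far below the others and DMSO replicate 1 far above, and IKE replicates 1 and 2 lay just above DMSO replicate 2. COQ2 had the fitted difference farthest from 0 among the 8, -0.83 ± 0.49 (SE; 95% interval -1.92 to 0.25; adjusted p = 0.532, limma). It was -0.45 without IKE replicate 4, -0.43 without DMSO replicate 1 and -1.24 without DMSO replicate 2. AIFM2 had 26.3, 21.03, 26.3 and 13.4 FPKM in PANC-1 IKE, against 19.8 and 19.0 FPKM in PANC-1 DMSO. The first 3 IKE libraries lay above both DMSO libraries and IKE replicate 4 below them, for a difference of 0.11 ± 0.38 (interval -0.72 to 0.95; adjusted p = 0.924, limma). On leaving out 1 library it ran from 0.0091 (without IKE replicate 1) to 0.32 (without IKE replicate 4). DHODH had 20.8, 20.1, 12.8 and 12.7 FPKM in PANC-1 IKE, against 21.4 and 13.9 FPKM in PANC-1 DMSO. Both groups held high and low libraries, and the difference was -0.09 ± 0.39 (interval -0.94 to 0.76; adjusted p = 0.943, limma).

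VKORC1L1, the vitamin K reductase, had 49.7, 66.1, 51.1 and 53.4 FPKM in PANC-1 IKE, against 106 and 62.2 FPKM in PANC-1 DMSO. DMSO replicate 1 stood alone, and the other DMSO library lay within the IKE range. The difference of -0.56 ± 0.34 (interval -1.31 to 0.18; adjusted p = 0.537, limma) was -0.18 without that library and -0.94 without DMSO replicate 2. GCH1 had 0.58 and 0.87 FPKM in IKE replicates 1 and 3, was listed at 0 in replicate 2 and had 4.82 FPKM in replicate 4, against 2.50 and 1.33 FPKM in PANC-1 DMSO. IKE replicate 4 was above both DMSO libraries and the other IKE libraries were below both. Its difference of -0.49 ± 0.75 had the widest interval of the 8, -2.14 to 1.17 (adjusted p = 0.819, limma). It was -0.99 without IKE replicate 4, -0.78 without DMSO replicate 2, -0.19 without DMSO replicate 1 and -0.15 without IKE replicate 2. With a pseudocount of 0.1 it was -1.35, and with 5 it was -0.12.

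The acyltransferase MBOAT2 had 17.8, 9.39, 17.1 and 25.3 FPKM in PANC-1 IKE, against 22.6 and 22.6 FPKM in PANC-1 DMSO. Its DMSO libraries were nearly equal, and IKE replicate 4 was above them while the other IKE libraries were below. MBOAT1 had 6.15, 5.63, 3.82 and 8 FPKM in PANC-1 IKE, against 11.5 and 4.11 FPKM in PANC-1 DMSO. Its IKE libraries lay mostly between its DMSO libraries, and the sign of its difference, -0.25 ± 0.49 with all libraries (interval -1.33 to 0.83; adjusted p = 0.866, limma), turned to 0.40 without DMSO replicate 1. PRDX6, the peroxiredoxin, had 330, 214, 306 and 187 FPKM in PANC-1 IKE, against 329 and 306 FPKM in PANC-1 DMSO. IKE replicates 1 and 3 were level with the DMSO libraries and replicates 2 and 4 were below them. The difference was -0.33 ± 0.34 for PRDX6 (interval -1.07 to 0.42; adjusted p = 0.721, limma) and -0.44 ± 0.41 for MBOAT2 (interval -1.35 to 0.47; adjusted p = 0.697, limma). For MBOAT2 it was -0.19 without IKE replicate 2. For PRDX6 it was -0.18 without IKE replicate 4 and 0.0039 without IKE replicates 2 and 4 together.

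In CFPAC-1 the survivors of 10 µM IKE were compared with cells in DMSO. None of the 8 genes was called by limma-trend, and no fitted difference exceeded 0.34 in size. In all, 16 of 12563 genes were called, or 0.127%. Before adjustment 0 of 8 genes were under 0.05, against 12.3% of all genes. IKE and DMSO libraries did not overlap for 3 of the 8 genes (AIFM2 higher, COQ2 and MBOAT1 lower), while they stood apart for 43.7% of all genes in this comparison of 2 against 2. The median difference was 0.01 over the 8 genes and -0.02 over all genes. All 8 were under 0.5 in size, as were 86.3% of all genes.

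MBOAT1 had 14.2 and 15.7 FPKM in CFPAC-1 IKE, against 19.1 and 19.1 FPKM in CFPAC-1 DMSO. Both IKE libraries were below both DMSO libraries, and the difference was -0.34 ± 0.18 (interval -0.77 to 0.10; adjusted p = 0.517, limma). COQ2 had 32.5 and 30.1 FPKM in CFPAC-1 IKE, against 38.3 and 36.4 FPKM in CFPAC-1 DMSO. Here too the IKE libraries were both lower, by a difference of -0.25 ± 0.15 (interval -0.62 to 0.12; adjusted p = 0.566, limma). AIFM2 had 27.5 and 24.0 FPKM in CFPAC-1 IKE, against 23.0 and 23.3 FPKM in CFPAC-1 DMSO. Both IKE libraries were higher, replicate 2 by a small margin, with a difference of 0.15 ± 0.17 (interval -0.26 to 0.55; adjusted p = 0.788, limma).

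For the other 5 genes the IKE and DMSO libraries of CFPAC-1 overlapped. GCH1 had 9.47 and 7.38 FPKM in CFPAC-1 IKE, against 9.95 and 9.34 FPKM in CFPAC-1 DMSO. DHODH had 28.7 and 23.6 FPKM in CFPAC-1 IKE, against 25.2 and 25.4 FPKM in CFPAC-1 DMSO. For GCH1, IKE replicate 1 lay between the DMSO libraries and replicate 2 below them, and for DHODH the DMSO libraries lay inside the IKE range. MBOAT2 had 29.4 and 20.8 FPKM in CFPAC-1 IKE, against 21.7 and 27.1 FPKM in CFPAC-1 DMSO. PRDX6 had 479 and 609 FPKM in CFPAC-1 IKE, against 504 and 578 FPKM in CFPAC-1 DMSO. The same held for these: both DMSO libraries lay inside the IKE range. VKORC1L1 had 55.5 and 70.6 FPKM in CFPAC-1 IKE, against 60.9 and 49.2 FPKM in CFPAC-1 DMSO. IKE replicate 1 lay between the DMSO libraries and replicate 2 above them. Fitted differences were -0.18 ± 0.23 for GCH1, 0.04 ± 0.18 for DHODH, 0.03 ± 0.22 for MBOAT2, 0.0009 ± 0.15 for PRDX6 and 0.19 ± 0.18 for VKORC1L1 (SE). Adjusted p-values of these 5 genes were 0.736 to 0.998 by limma. The interval for PRDX6 ran from -0.36 to 0.36 and that for MBOAT2 from -0.51 to 0.57, so differences of that size were not excluded.

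**Figure D2:**
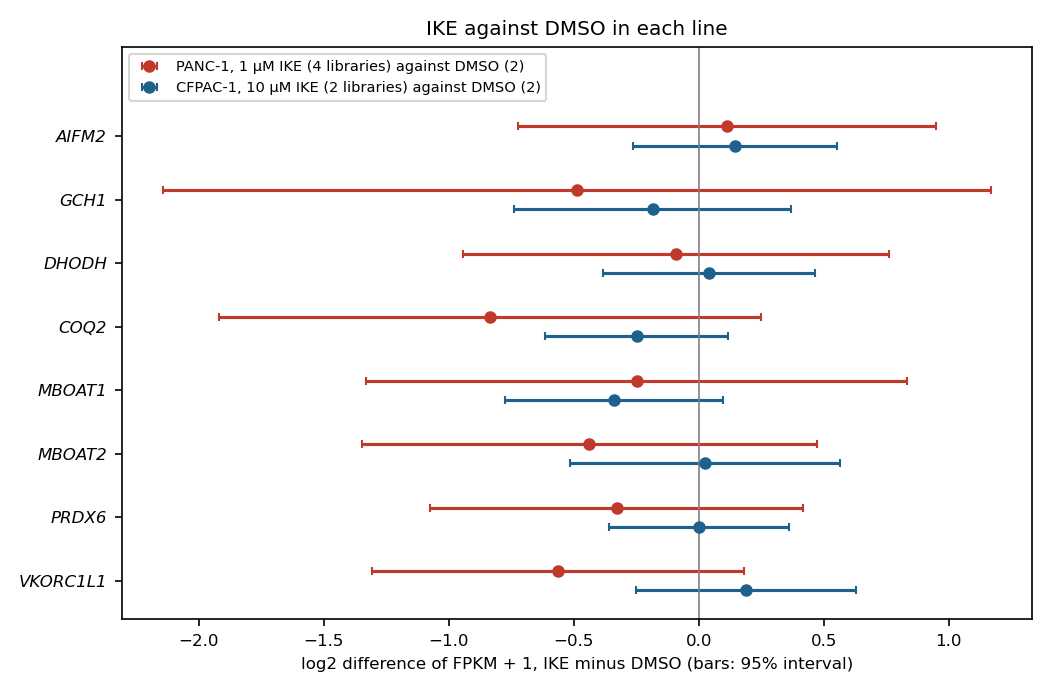
Difference between IKE and DMSO libraries for each gene in each line, as log2(FPKM + 1), IKE minus DMSO. Points are limma estimates and bars are 95% intervals. Every interval includes 0, and those of PANC-1 are wider than those of CFPAC-1.

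The difference between the IKE effects of the lines, PANC-1 minus CFPAC-1, was tested in a model of all 10 libraries. None of the 8 genes was called by limma-trend, against 4 of 13125 genes, or 0.0305%. Before adjustment 0 of 8 were under 0.05, against 8.41% of all genes. VKORC1L1 had the smallest p of the 8, with a fitted effect of -0.56 in PANC-1 and 0.19 in CFPAC-1 and a difference of -0.75 ± 0.41 (SE; interval -1.67 to 0.16; adjusted p = 0.646, limma). That difference was -0.37 without PANC-1 DMSO replicate 1 and -1.13 without PANC-1 DMSO replicate 2. COQ2 (-0.59 ± 0.68) and MBOAT2 (-0.46 ± 0.54) followed in size, and their intervals, -2.09 to 0.92 and -1.67 to 0.74, spanned changes in either direction. On leaving out 1 library, the difference ran from -0.99 (without PANC-1 DMSO replicate 2) to -0.18 (without PANC-1 DMSO replicate 1) for COQ2, with -0.20 without PANC-1 IKE replicate 4. For MBOAT2 it ran from -0.70 (without CFPAC-1 IKE replicate 2) to -0.21 (without PANC-1 IKE replicate 2), with -0.22 without CFPAC-1 IKE replicate 1. The other 5 genes had differences of -0.33 (PRDX6) to 0.09 (MBOAT1), and the median was -0.32 over the 8 genes and -0.01 over all genes.

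PANC-1 and CFPAC-1 cells in DMSO were then compared, which sets the lines side by side without IKE. Both PANC-1 DMSO libraries were read as shallower than both CFPAC-1 DMSO libraries (0.327 to 0.507 against 0.916 to 0.9997), by a reading anchored on CFPAC-1. Line and library depth therefore cannot be told apart in this comparison. MBOAT1 was lower in PANC-1 and was the only one of the 8 genes called by limma-trend. Of 13125 genes, 33.6% were called in this comparison. For 7 of the 8 genes (5 lower and 2 higher in PANC-1) the lines' DMSO libraries stood apart, as they did for 70.6% of all genes. The median difference was -0.38 over the 8 genes and -0.03 over all genes, on the log2(FPKM + 1) scale, PANC-1 minus CFPAC-1.

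MBOAT1 averaged 7.81 ± 5.23 FPKM in PANC-1 DMSO and 19.1 ± 0.0283 FPKM in CFPAC-1 DMSO (SD, n = 2 each). The difference of -1.33 ± 0.45 (SE; interval -2.33 to -0.34; adjusted p = 0.0424, limma) rested on PANC-1 libraries that were themselves far apart. It was -1.98 without PANC-1 DMSO replicate 1 and -0.69 without PANC-1 DMSO replicate 2, where it was no longer called (adjusted p = 0.255, limma). The call was lost in 11 of 21 alternatives, among them the removal of either library of CFPAC-1 DMSO (adjusted p = 0.160 and 0.158), of either library of CFPAC-1 IKE (0.0707 and 0.0702) and of PANC-1 IKE replicate 1 or 2 (0.0536 and 0.0513). In the 4 DMSO libraries alone its adjusted p was 0.0906 by limma. GCH1 was 2.50 and 1.33 FPKM in PANC-1 DMSO, against 9.95 and 9.34 FPKM in CFPAC-1 DMSO. Its difference of -1.90 ± 0.68 (interval -3.41 to -0.39) had an adjusted p of 0.0537 by limma. It was called in 8 of 20 alternatives, including without PANC-1 IKE replicate 4 (adjusted p = 0.00446) or replicate 2 (0.0342) and in the DMSO libraries alone (0.0145). PRDX6 averaged 317 ± 16.2 FPKM in PANC-1 DMSO and 541 ± 52.9 FPKM in CFPAC-1 DMSO (SD, n = 2 each), a difference of -0.77 ± 0.31 (interval -1.46 to -0.07; adjusted p = 0.0860, limma). It was called in 4 of 21 alternatives, including without PANC-1 IKE replicate 4 (0.0384).

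The remaining 5 genes were not called in DMSO under any of 21 alternatives. DHODH (17.7 ± 5.34 FPKM in PANC-1 and 25.3 ± 0.0849 FPKM in CFPAC-1) and AIFM2 (19.4 ± 0.615 FPKM in PANC-1 and 23.1 ± 0.240 FPKM in CFPAC-1) were lower in both PANC-1 libraries. COQ2 (63.5 ± 25.2 FPKM in PANC-1 and 37.3 ± 1.29 FPKM in CFPAC-1) and VKORC1L1 (84.1 ± 31.0 FPKM in PANC-1 and 55.1 ± 8.27 FPKM in CFPAC-1) were higher in both. MBOAT2 overlapped, at 22.6 ± 0.00707 FPKM in PANC-1 and 24.4 ± 3.78 FPKM in CFPAC-1, with a difference of -0.10 that was 0.0249 under quantile normalization. Intervals of the difference ran from -0.13 to 1.25 for VKORC1L1, -0.45 to 1.83 for COQ2, -1.31 to 0.26 for DHODH and -1.01 to 0.52 for AIFM2. Adjusted p-values ran from 0.197 for VKORC1L1 to 0.883 for MBOAT2 by limma.

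A comparison chosen after the data had been seen averaged the line difference over DMSO and IKE libraries, which uses all 6 PANC-1 and all 4 CFPAC-1 libraries. GCH1, MBOAT1 and PRDX6 were lower in PANC-1 and were called by limma-trend, 3 of the 8 genes, against 54.0% of all genes. DHODH, GCH1, MBOAT1 and PRDX6 were lower in every PANC-1 library than in every CFPAC-1 library, or in 24 of 24 pairs each. Thus 4 of 8 genes did not overlap, against 44.4% of all genes, and neither count is a result about these 8 genes as a set. The median difference of the 8 genes was -0.46, against -0.03 over all genes. IKE doses differed between the lines, so this average does not compare the lines at a matched dose. Line and library depth cannot be told apart here either.

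GCH1 reached at most 4.82 FPKM in PANC-1 (range 0 to 4.82, median 1.10, n = 6) and at least 7.38 FPKM in CFPAC-1 (9.04 ± 1.13 FPKM, SD, n = 4). The groups stood clear of each other even with PANC-1 IKE replicate 4, which was the highest PANC-1 library. The difference was -2.05 ± 0.45 (SE; interval -3.05 to -1.05; adjusted p = 0.00312, limma), and the call held in 19 of 19 alternatives, with values of -2.91 to -1.08.

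MBOAT1 averaged 6.54 ± 2.87 FPKM in PANC-1 and 17.0 ± 2.50 FPKM in CFPAC-1 (SD, n = 6 and 4). Its highest PANC-1 library, DMSO replicate 1 at 11.5 FPKM, stayed below its lowest CFPAC-1 library, IKE replicate 1 at 14.2 FPKM. The difference was -1.29 ± 0.30 (interval -1.94 to -0.63; adjusted p = 0.00416, limma). Its paralogue MBOAT2 averaged 19.1 ± 5.72 FPKM in PANC-1 and 24.8 ± 4.14 FPKM in CFPAC-1, with overlapping libraries and a difference of -0.33 ± 0.27 (interval -0.93 to 0.27; adjusted p = 0.329, limma). Per length, MBOAT2 exceeded MBOAT1 in each of the 10 libraries, by a ratio of 1.67 to 5.51 in PANC-1 and 1.14 to 2.07 in CFPAC-1, and these ranges overlapped.

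PRDX6 averaged 279 ± 61.8 FPKM in PANC-1 and 542 ± 61.2 FPKM in CFPAC-1 (SD, n = 6 and 4). The highest PANC-1 library was at 330 FPKM and the lowest CFPAC-1 library at 479 FPKM. The difference was -0.93 ± 0.21 (interval -1.39 to -0.47; adjusted p = 0.00346, limma). Calls of PRDX6 and MBOAT1 held in 20 of 20 alternatives, with values of -1.02 to -0.76 and -1.61 to -0.93. In CFPAC-1, PRDX6 alone had 2.43 to 3.17 times the summed FPKM of the other 7 genes, whereas in PANC-1 it had 1.24 to 2.02 times.

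DHODH averaged 17.0 ± 4.24 FPKM in PANC-1 and 25.7 ± 2.15 FPKM in CFPAC-1 (SD, n = 6 and 4). Although no library overlapped, the difference of -0.59 ± 0.23 (interval -1.11 to -0.07) missed the threshold (adjusted p = 0.0534, limma). It was called in 7 of 20 alternatives, 3 of them without a single PANC-1 library, DMSO replicate 1 (-0.74, adjusted p = 0.0344), IKE replicate 1 (-0.65, 0.0382) or IKE replicate 2 (-0.64, 0.0436). COQ2 averaged 45.9 ± 21.4 FPKM in PANC-1 and 34.3 ± 3.71 FPKM in CFPAC-1, and 5 of the 6 PANC-1 libraries lay above every CFPAC-1 library. IKE replicate 4, at 14.7 FPKM, lay below them all. Its difference of 0.40 ± 0.34 (adjusted p = 0.342, limma) was 0.59 and called without that library (adjusted p = 0.0270).

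AIFM2 averaged 20.97 ± 4.92 FPKM in PANC-1 and 24.4 ± 2.09 FPKM in CFPAC-1, with overlapping libraries and a difference of -0.26 ± 0.23 (interval -0.77 to 0.25; adjusted p = 0.362, limma). VKORC1L1 averaged 64.8 ± 21.3 FPKM in PANC-1 and 59.0 ± 9.05 FPKM in CFPAC-1. Only PANC-1 DMSO replicate 1 stood above the CFPAC-1 range, and the difference was 0.19 ± 0.21 (interval -0.27 to 0.64; adjusted p = 0.474, limma). Without that library it was -0.0050.

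**Figure D3:**
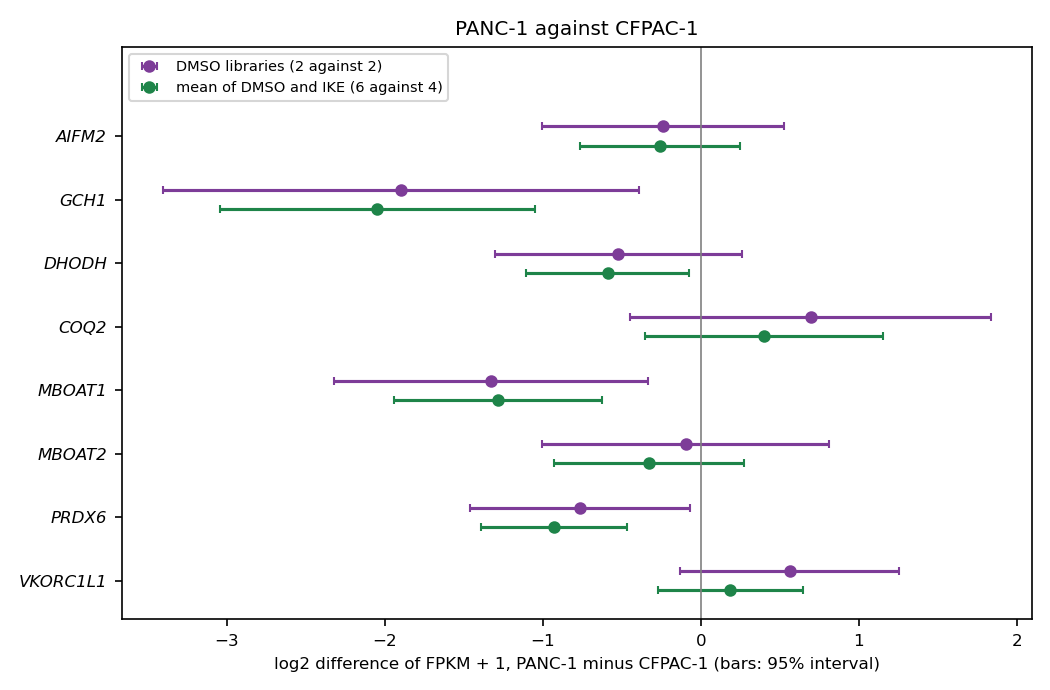
Difference between the lines for each gene as log2(FPKM + 1), PANC-1 minus CFPAC-1, in DMSO libraries and averaged over DMSO and IKE libraries. Points are limma estimates and bars are 95% intervals. Averaged intervals of GCH1, MBOAT1, PRDX6 and DHODH lie below 0, and those of the other 4 genes include 0.

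**Figure D4:**
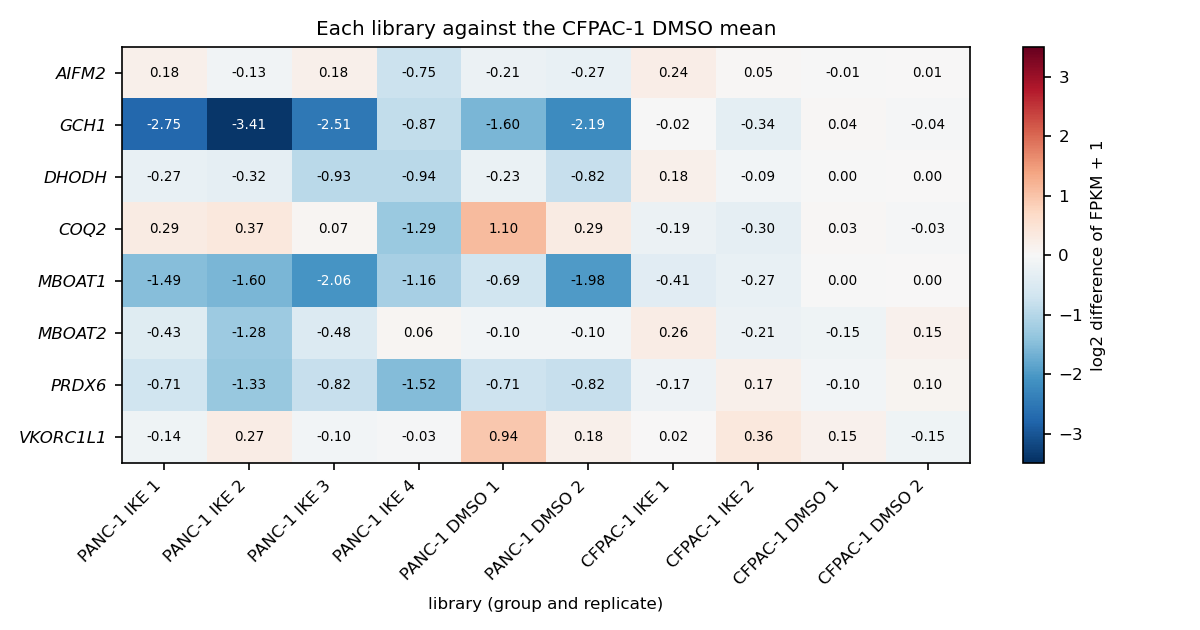
Level of each gene (rows) in each library (columns) as the difference of log2(FPKM + 1) from the CFPAC-1 DMSO mean, printed in each cell, with blue lower and red higher. GCH1 runs from -3.41 to -0.87 in the PANC-1 libraries, and COQ2 from -1.29 in IKE replicate 4 to 1.10 in DMSO replicate 1.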

How the data were processed

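Ribosome footprints were measured in 10 libraries. The authors deposited 1 table, whose headers name its values as FPKM. Per the submitters' processing notes, the tools were STAR, RSEM, DESeq2, fastp and Bowtie2 2.2.8 and the build was GRCh38, as names with no role given here. The strand setting is not given in the sources used here. Values of overlapping genes are therefore uncertain. No column was pooled. Absolute depth is unknown, so no counting interval is given. No count test was run because only 68.3% to 74.6% of low PANC-1 values came out as whole reads (tolerance 0.15 reads). In each CFPAC-1 library 100% did, but the genes and their read units had been chosen from CFPAC-1 so that they would. That share therefore does not show that CFPAC-1 reads were recovered. The reading was tested on simulated whole reads alone, so that test does not cover the PANC-1 libraries.

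FPKM were taken as log2(FPKM + 1), which understates changes of low values. For each fit, genes that averaged 1 FPKM or more across its libraries were tested by limma-trend (limma 3.58.1, R 4.3.3). P-values were adjusted over all of them by Benjamini-Hochberg, and calls were made below an adjusted p of 0.05. The fits were checked on simulated data with independent noise, where the only criterion was that set differences were recovered. The rate of false calls was no criterion. IKE effects were fitted on the line's own libraries. The line comparisons and the difference of effects were fitted on all 10 libraries in 4 groups. These fits use 1 spread per gene for both lines, although the median residual SD was 0.48 in PANC-1 and 0.18 in CFPAC-1. Their p-values and intervals are therefore approximate. "Did not overlap" means that every library of a group lay above or below every library of the other. All 8 genes are named in each comparison. Members, lists and tests were chosen with earlier results of these data known. The average over DMSO and IKE was chosen after seeing the data, as was the replicate block across groups.

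Promoter sequences and coordinates are RefSeq's, GRCh38.p14. Pathway gene lists, genes of like pattern and cell type markers were not used here, since 0 Ensembl IDs were paired with symbols.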

Additional observations from a re-analysis of the deposited data

How the results depend on the processing

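No member was called for an IKE effect in PANC-1 (18 alternatives, 17 for GCH1), an IKE effect in CFPAC-1 (15) or the difference of effects (20, 19 for GCH1, which a filter at 5 FPKM leaves out). The number of genes called by limma for IKE in PANC-1 was 2; it was 0 with a pseudocount of 0.1 (1347 at an unadjusted p under 0.05), 1 each with no filter, with a filter at 5 FPKM and with a replicate block, and 0 to 3 on leaving out 1 library. For IKE in CFPAC-1 it was 16, against 4 with no filter, 1 with all libraries in 1 model, 65 with the replicate block (51 higher and 14 lower, where all 16 were higher), 0 without a mean-variance trend (1281 unadjusted) and 0 to 4 on leaving out 1 library, with 1 lower gene without CFPAC-1 IKE replicate 1. For the difference of effects it was 4, against 1 with a pseudocount of 5, 2 with no filter, 2 without PANC-1 IKE replicates 2 and 4, 0 with the replicate block within line (843 unadjusted) and 0 to 4 on leaving out 1 library. Leaving out 1 library gave 2474 to 5332 called genes for the lines in DMSO, where 4410 were called, and 5691 to 7605 for the average, where 7087 were called. The labels do not say that replicate numbers pair samples. Same-numbered IKE and DMSO libraries deviated from their group means with correlations of 0.049 in CFPAC-1 and -0.17 and -0.16 in PANC-1. Each DMSO group has 2 libraries, which deviate by equal and opposite amounts. Different-numbered pairs therefore gave the same correlations with the opposite sign, and these values cannot settle whether samples were paired. With the replicate block across all groups, GCH1 in DMSO (adjusted p = 0.00563, limma) and COQ2 in the average (0.64, adjusted p = 0.0450) were called. With the replicate block the IKE effect in PANC-1 was -0.76 for MBOAT2, -1.18 for GCH1 and -0.36 for COQ2, none called. Quantile normalization put the median line difference of all genes at 0.10 in DMSO and 0.12 in the average, against -0.03 in both as deposited. Signs turned only for differences that were not called, and the cause was not tested. On leaving out 1 library the IKE effect in PANC-1 ran from -0.39 to 0.21 for DHODH and from -0.89 to 0.40 for MBOAT1, and in CFPAC-1 from -0.21 to 0.26 for MBOAT2, from -0.17 to 0.17 for PRDX6 and from -0.094 to 0.18 for DHODH. The difference of effects ran from -0.14 to 0.17 for AIFM2, from -0.81 to 0.038 for GCH1, from -0.43 to 0.16 for DHODH and from -0.55 to 0.74 for MBOAT1. The line difference of MBOAT2 in DMSO ran from -0.25 to 0.055, and the averaged one of VKORC1L1 from -0.0050 to 0.38. Other turns were DHODH in PANC-1 with the replicate block (0.23), PRDX6 in PANC-1 without IKE replicates 2 and 4 (0.0039) and MBOAT2 in DMSO under quantile normalization (0.0249). For the difference of effects they were GCH1 with a pseudocount of 5 (0.0078), AIFM2 and MBOAT1 with library weights (0.17 and -0.14), AIFM2, MBOAT1 and PRDX6 without PANC-1 IKE replicates 2 and 4 (0.28, -0.11 and 0.0030), and AIFM2 and DHODH with the block within line (0.12 and 0.19). Absolute depth is unknown, so what depth limits was not measured for single genes.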
